A study of Danio rerio with 12 samples.

Results

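Zebrafish embryos that lack the microRNA miR-34a were compared with wild-type embryos in the absence of DNA damage. The mutant group held 3 polyadenylated RNA libraries from miR-34a-/- embryos and the wild-type group held 3 libraries from wild-type embryos, and each library came from a pool of 30 to 50 whole embryos at 28 hours post fertilisation (hpf). Embryos of both groups had been exposed to 0.005% DMSO for 4 h from 24 hpf, as vehicle. These are 6 of the 12 libraries of a study in which the other 6, again 3 per genotype, were exposed to 1 µM camptothecin (CPT), a topoisomerase I poison that breaks DNA. Reads were counted per gene, and 11866 of the 15265 genes in the count table had enough counts to be tested. The labels do not say that the pools came from separate clutches, so spread between pools is what the p-values measure, and it may be partly technical. Columns of the count table name the mutant allele as a deletion of mir34a. The labels also do not say whether the mutant and wild-type embryos were siblings, so the deletion and the family the embryos came from cannot be told apart.

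MicroRNAs are short RNAs that guide Argonaute proteins to matching sites, mostly in the 3′ untranslated regions of messenger RNAs, and lower the stability or translation of those messages. Loss of a microRNA is therefore tested for a rise of its targets. In mammals the miR-34 family is switched on directly by the transcription factor p53 after DNA damage, and its known targets promote the cell cycle, survival, and Notch and Wnt signalling. Mouse miR-34b and miR-34c, which share their seed with miR-34a, are best known for their role in ciliated cells.

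The mutant DMSO libraries held 15, 22.4 and 18.4 M counts, and the wild-type DMSO libraries held 20.2, 21.6 and 22.8 M counts. Genes of every tissue list used below, from hatching gland to lens, heart, muscle and blood, were detected. Expression profiles were close, with Spearman correlations across genes between 0.989 and 0.994 for the 15 pairs of libraries. Along the first principal component, with 33.9% of the variance of log2 CPM (read counts scaled to a library of 1e6 counts), the genotypes separated, with mutant scores of -18.3, -17.9 and -11.3 against wild-type scores of 7.42, 19.3 and 20.8. Wild-type library 1 lay nearest to the mutants on it, and it was also the wild-type library nearest to the mutant mean in 47 of the 71 genes called below, against 10 for library 2 and 14 for library 3. On the second component (23.7%) mutant library 1 stood apart from the other mutants, with mutant scores of 25.4, -9.42 and -19.1 and wild-type scores of -0.87, -2.38 and 6.36.

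The precursor of miR-34a itself was too scarce to check the genotypes without DNA damage. Its row, named mir34 in the table, was at 0, 0 and 0 counts in mutant DMSO pools, against 0, 1 and 0 counts in wild-type DMSO pools. A count of 0 over the 3 mutant libraries allows up to 0.0537 CPM, taken as 3 counts over the group, and the wild-type count lies under the matching limit of 0.0464 CPM, so no fold can be given. In the CPT libraries the row held 0, 0 and 0 counts in mutants and 9, 9 and 32 counts in wild-type embryos, so there the labels and the row go together. The rows of mir34b and mir34c were at 0 in the 12 libraries. Poly(A) selection captures primary transcripts and not mature microRNAs, so none of these counts measures mature miR-34.

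Few genes separated the genotypes in DMSO. Of the 11866 genes tested, 71 (0.598%) differed at a Benjamini-Hochberg adjusted p under 0.05 in edgeR's quasi-likelihood test, which is what "called" means below. Among them 23 were higher in mutants (0.194%) and 48 were lower (0.405%). The median log2 fold change was 0.77 for the higher genes and -1.34 for the lower ones, against 0.01 over the tested genes. Differences of 2-fold or more were seen for 8 higher and 31 lower genes, and of 4-fold or more for 4 higher and 11 lower genes. The 3 mutant libraries did not overlap the 3 wild-type libraries in any of the 71, while 2024 of the tested genes (17.1%) showed no overlap. A further measure of small differences is the unadjusted test: 1397 genes had a p under 0.05, with 739 higher and 658 lower, where 593.3 are expected by chance. The count rests on single libraries: without wild-type library 1 it was 196 genes, and without wild-type library 2 or 3 or mutant library 1, 2 or 3 it was 27, 28, 41, 24 or 35 genes, in that order. Without overlap between the groups, leaving out a library cannot turn a direction, so the kept signs of the 71 genes say nothing of stability.

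The deepest losses were of genes near the miR-34a locus. idh3g, which encodes the regulatory gamma subunit of the NAD-dependent isocitrate dehydrogenase of the citric acid cycle, had no count in the mutant libraries, against 7.83, 8.78 and 7.05 CPM in wild-type embryos. Summed over the groups this is 0 counts in mutants and 532 in wild-type embryos, at least 153-fold lower when the mutant sum is put at 3 counts (adjusted p = 1.03e-09). ptges3a, an Hsp90 co-chaperone of the p23 family, had 0, 0.0876 and 0.0507 CPM in mutants against 8.16, 6.89 and 8.28 CPM in wild-type embryos. Its sums were 3 counts in mutants and 525 counts in wild-type embryos, a wild-type to mutant ratio of 151 with an exact 95% counting interval of 51.5 to 737. szrd1, a gene of unsettled function whose product carries a SUZ RNA-binding motif, had 0.245, 0.306 and 0.406 CPM in mutants and 9.80, 14.1 and 8.58 CPM in wild-type embryos, a log2 fold change of -5.04 ± 0.31 (SE). For these 3 genes the mutant pools were at or close to 0 while every wild-type pool expressed them.

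**Figure D1:**
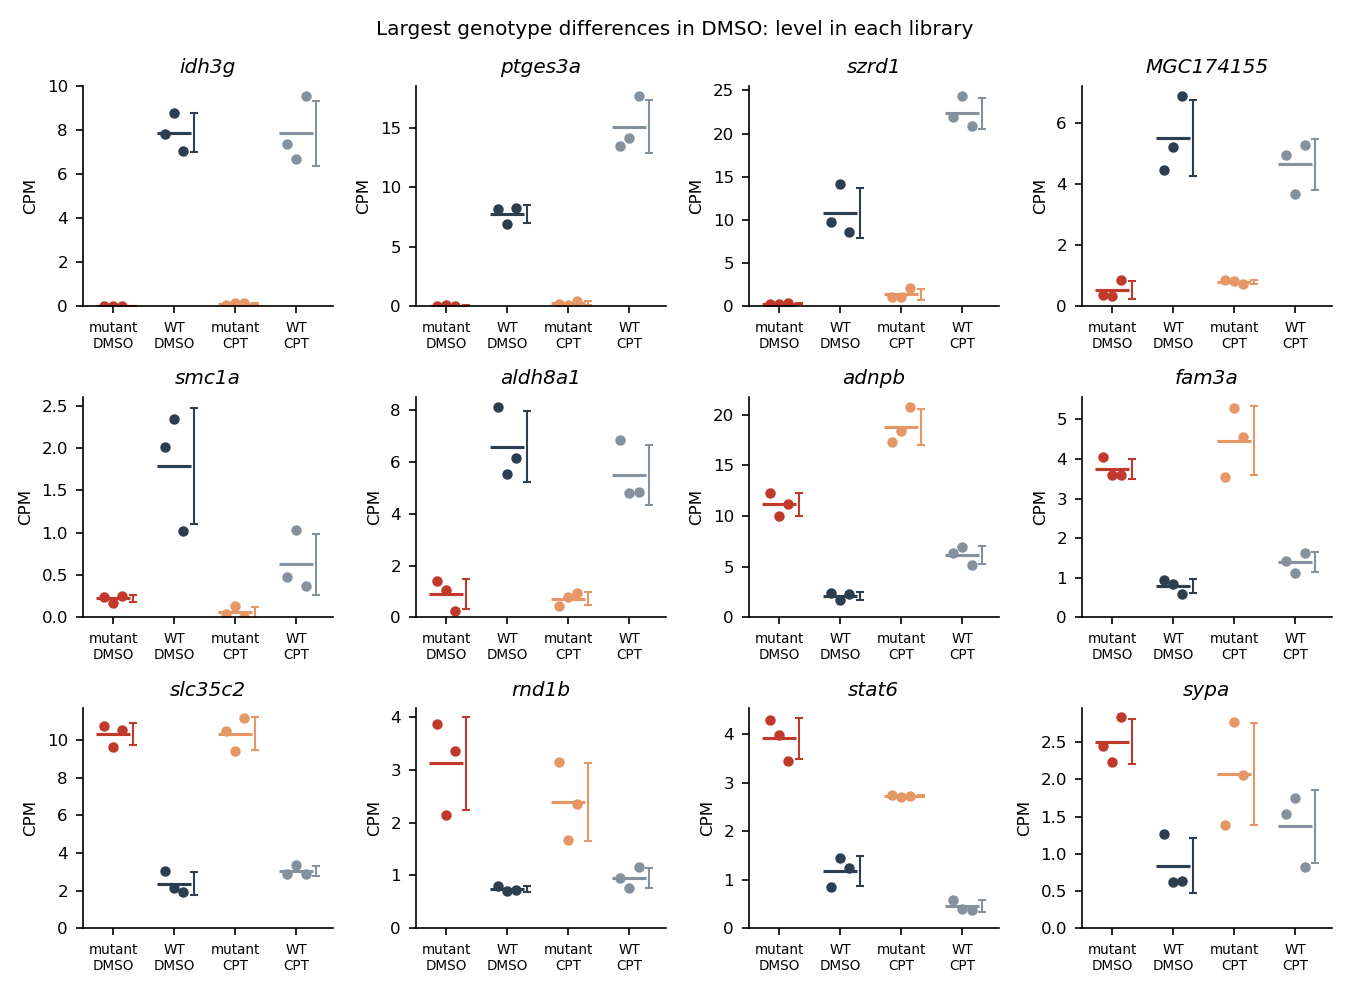
CPM (TMM-scaled) of the 6 genes with the largest falls and the 6 with the largest rises by the naming rule, in each library of the 4 groups. The rule takes called genes with a mean of at least 1 CPM in a DMSO group. Points are libraries, the horizontal line is the mean of 3 and the bar is ± 1 SD. idh3g, ptges3a and szrd1 lie at or near 0 in mutants of both treatments, and adnpb, fam3a and slc35c2 lie well above their wild-type libraries in both.

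Several other genes on the same chromosome were lower. smc1a, a subunit of the cohesin ring that holds sister chromatids together, had 0.245, 0.175 and 0.254 CPM in mutants and 2.02, 2.34 and 1.02 CPM in wild-type embryos (log2 fold change -2.98 ± 0.51). Its neighbour ribc1, which codes for a protein of ciliary doublet microtubules, had 0.368, 0.306 and 0.304 CPM in mutants against 1.97, 2.60 and 1.70 CPM in wild-type embryos (-2.67 ± 0.37). aldh8a1, an aldehyde dehydrogenase of the kynurenine pathway, had 1.41, 1.05 and 0.254 CPM in mutants and 8.12, 5.52 and 6.16 CPM in wild-type embryos (-2.88 ± 0.35). arhgap4a, a GTPase-activating protein, averaged 1.39 ± 0.44 CPM in mutants and 4.33 ± 0.31 CPM in wild-type embryos (SD, n = 3 each). lrrc23, a radial spoke protein of motile cilia, averaged 1.37 ± 0.09 CPM in mutants and 3.30 ± 0.61 CPM in wild-type embryos, and kctd6b, of the family of Cullin 3 adaptors and picked after its values were seen, averaged 0.358 ± 0.173 CPM in mutants and 1.29 ± 0.53 CPM in wild-type embryos. The smc1a call held in 4 of the 6 fits that left out a library, with the largest adjusted p without mutant library 2 (0.0794, edgeR), and those of lrrc23 and kctd6b held in 2 of them.

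The same stretch held large rises too. adnpb, a zinc-finger and homeobox protein of chromatin related to human ADNP, had 12.3, 10.03 and 11.2 CPM in mutants against 2.44, 1.68 and 2.29 CPM in wild-type embryos, a log2 fold change of 2.38 ± 0.19 (adjusted p = 9.44e-08, edgeR). fam3a, which codes for a small secreted protein of the FAM3 family, had 4.05, 3.59 and 3.601 CPM in mutants and 0.938, 0.839 and 0.594 CPM in wild-type embryos (2.24 ± 0.27). rnd1b, a small GTPase, had 3.86, 2.15 and 3.35 CPM in mutants and 0.797, 0.706 and 0.722 CPM in wild-type embryos (2.05 ± 0.32). stat6, the transcription factor downstream of interleukin 4 and 13, had 4.29, 3.98 and 3.45 CPM in mutants and 0.844, 1.46 and 1.23 CPM in wild-type embryos (1.72 ± 0.26). In each of these 4 genes, as in all 71 called genes, the groups did not overlap, which therefore adds nothing to the call. The call of each held without any of the 6 libraries in turn.

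Gene order was taken from a later zebrafish assembly, GRCz12tu, in which 11760 of the tested genes and 70 of the 71 called genes could be placed. The chromosome that holds mir34a there has 416 tested genes, of which 16 (3.85%) were called, 5 higher and 11 lower. On the other chromosomes 54 of 11344 genes (0.476%) were called, and the chromosome with the next highest share had 1.33%. Within 50 tested genes of mir34a 10 of 100 genes were called (10%), all by 2-fold or more, with 4 higher and 6 lower. From 51 to 100 genes away 3 of 100 were called (3.0%), namely ribc1, smc1a and aldh8a1, and beyond that 3 of 216 (1.39%), the cytochrome P450 genes cyp2aa6 and cyp2aa4, both lower, and cyp2aa2, higher, which lie 194, 196 and 200 tested genes after mir34a with uncalled genes of the same family between them. The nearest called genes were szrd1, 10 tested genes after mir34a, then adnpb, 16 before it, arhgap4a, idh3g and fam3a, 17, 18 and 19 after it, and lrrc23, 20 before it. rnd1b, ptges3a and stat6 lay 35, 37 and 39 genes after it. Higher and lower genes were interleaved: idh3g, with no count in mutants, is followed, as the next tested gene, by fam3a, which was higher in them. The median log2 fold change of the 100 nearest genes was 0.02, and 28.0% of them had an unadjusted p under 0.05, against 11.5% on the other chromosomes. No test of the excess was made, since gene order was looked at with these calls known.

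**Figure D2:**
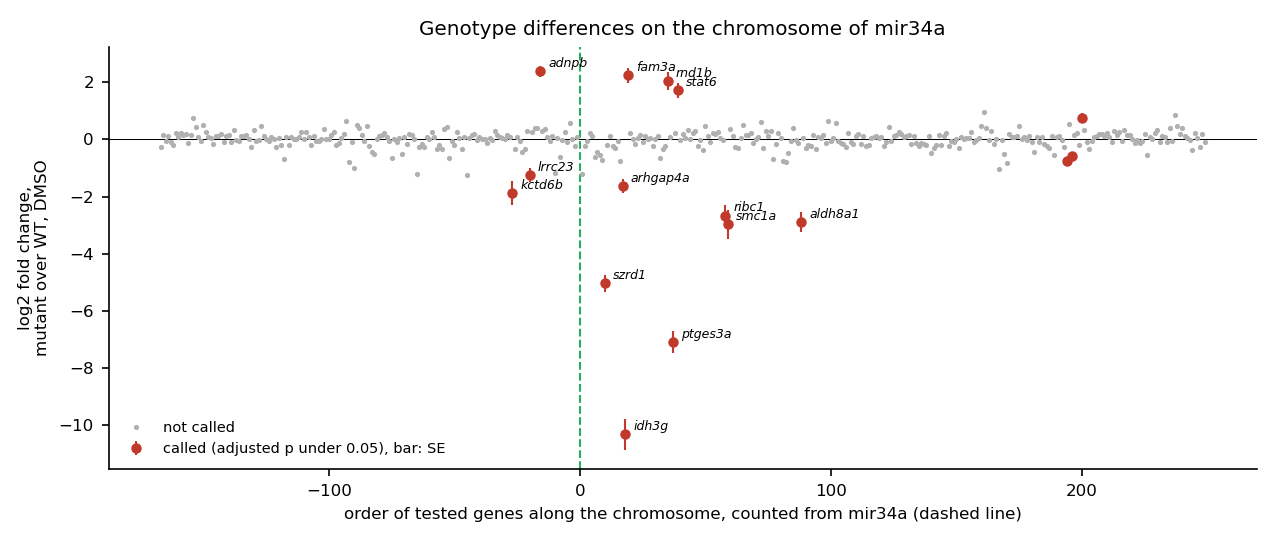
Log2 fold change, mutant over wild-type embryos in DMSO (y), of the 416 tested genes on the chromosome of mir34a, in their order along it counted from mir34a (x, number of tested genes; the dashed line is mir34a). Red points with SE bars are the 16 called genes, and 13 of them lie within 100 genes of mir34a, the deepest being idh3g, whose fitted value is not a bound since mutants had no count.

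CPT-exposed embryos of the same genotypes gave 6 further libraries in which the same genes could be looked up. There 390 of the tested genes (3.29%) were called between mutants and wild-type embryos. The 16 called genes on the chromosome of mir34a were called in CPT as well, with the same sign in each. Of the 54 called genes on other chromosomes, 13 were. In CPT ptges3a averaged 0.265 CPM in mutants and 15.09 CPM in wild-type embryos, szrd1 1.40 CPM in mutants and 22.4 CPM in wild-type embryos, and adnpb 18.8 CPM in mutants and 6.16 CPM in wild-type embryos. Of all 71 genes, 59 had the same sign and 30 were called in both treatments, 7 higher and 23 lower, which is 42.3% of the DMSO calls and 7.69% of the CPT calls. Of the 39 calls of 2-fold or more 24 were called in CPT, and of the 32 smaller ones 6 were. By direction, 13 of the 23 higher genes and 46 of the 48 lower genes kept their sign. The 42.3% is not a stable share, as it was 27.6% without wild-type DMSO library 1, 81.5% or 71.4% without wild-type library 2 or 3, and 79.2% or 62.9% without mutant library 2 or 3. A gene called in DMSO and not in CPT is not thereby shown to differ between them. Of 41 such genes, 1, ddx54, passed the adjusted test of the difference, and 29 had an unadjusted p under 0.05. Choosing genes by a call in DMSO and none in CPT favours a low p of this difference. The 29 are therefore no measure of how many genes differ.

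**Figure D3:**
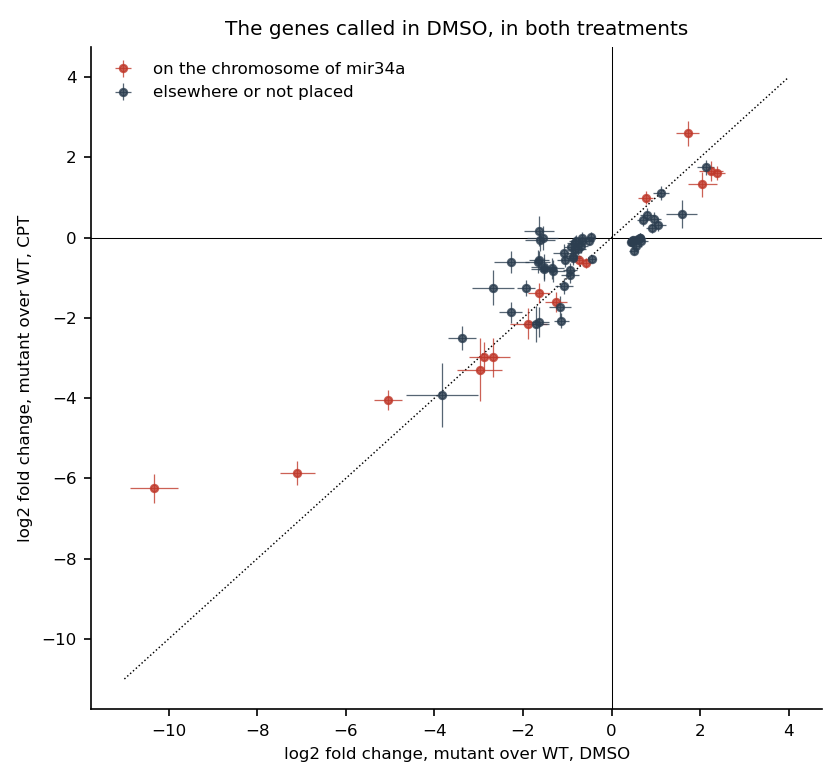
Log2 fold change, mutant over wild-type embryos, of the 71 genes called in DMSO, in DMSO (x) and in CPT (y), with SE bars; the dotted line marks equal values. The 16 genes on the chromosome of mir34a (red) have the same sign in both treatments, and many smaller rises elsewhere lie near 0 in CPT.

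Off that chromosome, or not placed, strong differences were again both losses and gains, and some of these genes lay near another called gene. slc35c2, of a family of nucleotide-sugar transporters, had 10.7, 9.63 and 10.6 CPM in mutants and 3.05, 2.12 and 1.91 CPM in wild-type embryos (log2 fold change 2.13 ± 0.19), and its place in the assembly was not found. MGC174155, an uncharacterised gene, had 0.368, 0.350 and 0.862 CPM in mutants and 4.46, 5.21 and 6.88 CPM in wild-type embryos (-3.37 ± 0.31). Both groups of libraries were far apart in these genes, and both were called again in CPT. vps54, a subunit of the tether that returns vesicles from endosomes to the Golgi, had 38.4, 31.9 and 31.1 CPM in mutants and 20.6, 16.5 and 16.9 CPM in wild-type embryos (0.91 ± 0.13). It averaged 30.9 CPM in mutants and 26.4 CPM in wild-type embryos after CPT, where it was not called (adjusted p = 0.333, edgeR). rimkla and ggact.2 were picked after their values were seen. rimkla, which makes the neuronal dipeptide N-acetylaspartylglutamate, had 10.2, 5.52 and 6.80 CPM in mutants and 15.6, 16.3 and 17.1 CPM in wild-type embryos. ggact.2, a gamma-glutamylamine cyclotransferase, rose to 17.2, 14.9 and 21.0 CPM in mutants, against 10.3, 6.80 and 7.30 CPM in wild-type embryos.

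Of the 15 called genes with the smallest p, cfh, cfhl2 and c3b.1 are known as complement genes, and the 3 were lower; no complement list was tallied. cfh, of the factor H family that restrains the alternative complement pathway, had 2.45, 3.90 and 5.33 CPM in mutants and 15.4, 15.7 and 13.7 CPM in wild-type embryos (log2 fold change -1.93 ± 0.20, adjusted p = 1.05e-05, edgeR). Its relative cfhl2 had 1.78, 1.31 and 2.08 CPM in mutants and 6.33, 4.94 and 4.84 CPM in wild-type embryos. c3b.1, a copy of the central complement component C3, had 1.35, 1.23 and 1.17 CPM in mutants and 6.05, 6.36 and 5.77 CPM in wild-type embryos (-2.28 ± 0.26). Mutants and wild-type embryos did not overlap, as in all 71 called genes, and the 3 calls held without any library in turn. In gene order these are not independent places: aspm, a spindle-pole protein of dividing neural progenitors, lies 2 tested genes from cfh, cfhl2 also lies 2 from cfh, and c3b.1 lies 16 from cfhl2. aspm itself had 2.21, 1.71 and 1.88 CPM in mutants and 5.54, 6.62 and 5.90 CPM in wild-type embryos. Other called neighbours off the mir34a chromosome were rimkla with si:ch211-156j16.1 and sema3bl, srebf2 with zgc:153921, si:ch211-251f6.6 with zgc:173443, and ethe1 with nr0b2a, each within 4 tested genes of the next. Counting over the genome, 32 of the 71 called genes lay within 10 tested genes of another, and 17 of these were off the mir34a chromosome. The share of all tested genes that lie so near a called gene was not taken, so these counts do not measure clustering. These pools are bulk samples of whole embryos, in which fewer cells of a type and less RNA per cell cannot be told apart.

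Of the 71 called genes 19 stayed called in each of the 15 alternatives of tool, scaling, filter, model and libraries, the 6 left-out libraries included. They are 10 of the 16 on the chromosome of mir34a and 9 of the other 55, namely slc35c2, MGC174155, cfh, c3b.1, vps54, cfhl2, aspm, rimkla and ggact.2. The other called genes are mostly smaller differences, picked out here after their values were seen. The cytosolic heat shock gene hsp70l had 8.83, 10.1 and 13.4 CPM in mutants against 5.86, 4.46 and 5.35 CPM in wild-type embryos. hspa5, the main Hsp70 of the endoplasmic reticulum, had 963, 1080 and 1060 CPM in mutants against 819, 632 and 547 CPM in wild-type embryos (log2 fold change 0.63 ± 0.13). ero1a, the oxidase of that compartment, went the other way, with 0.848 ± 0.479 CPM in mutants and 2.65 ± 0.69 CPM in wild-type embryos (SD, n = 3 each). ddx54, nol10 and riok2, which are known for roles in ribosome assembly, were higher by 0.50, 0.44 and 0.81 on the log2 scale; no list of such genes was tallied. So were the chromatin reader brd2a (0.47), the Wnt co-activator pygo2 (0.56) and the sterol regulator srebf2 (0.47). Lower in mutants were the hypoxia regulator vhl (-0.94), the glucose-6-phosphatase gene g6pca.2 (-1.53), the nuclear receptor nr0b2a (-0.69), the translational repressor eif4ebp1 (-1.08) and the DNA repair gene fancg (-1.07). g6pca.2 had 22.1, 23.0 and 28.1 CPM in mutants, against 33.0, 84.7 and 93.5 CPM in wild-type embryos, and is among 9 called genes whose wild-type pools spanned over 2-fold. It was called in 1 of the 6 fits without a library, that without wild-type library 1. c1galt1a, the enzyme that builds core 1 O-glycans, had 2 counts in mutants and 38 counts in wild-type embryos, a wild-type to mutant ratio of 16.4 with a counting interval of 4.25 to 141, and its call was lost in each fit without a library in which it was tested.

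Genes known in mammals as miR-34 targets were not called. Of 71 zebrafish genes listed, 62 were in the table and 59 were tested. None passed edgeR's adjusted test, DESeq2 called 1 and limma-voom 0. Over the 11866 tested genes DESeq2 called 182 and limma-voom 65, which is also the background of their counts in the lists below. Of the 59, 7 had an unadjusted p under 0.05, 3 higher and 4 lower, which is 11.9% against 11.8% of the tested genes. Their median log2 fold change was 0.065, against 0.015 for the tested genes, but 0.017 without mutant library 1 and 0.093 without mutant library 3. Above 0 were 43 of the 59, and 6282 of the 11866 tested genes. Values ran from -0.59 for fosl1a, an AP-1 subunit, to 0.51 for fosb. The 95% interval lay within 2-fold in both directions for 57 of the 59 genes and within 0.5 on the log2 scale for 32, so larger rises of those genes are outside their intervals. Without wild-type library 1, which lay nearest to the mutants, 3 were called, 2 higher and 1 lower. Of the 12026 genes tested in that fit 196 were called, 92 higher and 104 lower.

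By pathway the targets gave small values. Among cell cycle genes, cdk4, a kinase of the G1 phase picked after its values were seen, had 39.1, 44.6 and 39.6 CPM in mutants and 32.9, 31.6 and 32.9 CPM in wild-type embryos (log2 fold change 0.34 ± 0.10, adjusted p = 0.132, edgeR). The other G1 kinase gene, cdk6, averaged 2.84 ± 0.59 CPM in mutants and 2.52 ± 0.47 CPM in wild-type embryos, with a wide interval of -0.57 to 0.91. ccnd1, the cyclin that both kinases bind, averaged 360 ± 46 CPM in mutants and 400 ± 24 CPM in wild-type embryos. mycn, a growth-promoting transcription factor, averaged 219 ± 16 CPM in mutants and 212 ± 19 CPM in wild-type embryos (0.05, interval -0.15 to 0.25). Of the receptors, notch1a had 390, 320 and 268 CPM in mutants and 283, 283 and 270 CPM in wild-type embryos (0.22, interval -0.03 to 0.48), so the groups overlapped. met, the receptor of hepatocyte growth factor, averaged 24.0 ± 5.9 CPM in mutants and 20.6 ± 2.6 CPM in wild-type embryos, and lrp6, the Wnt co-receptor, had 114, 123 and 102 CPM in mutants and 101, 85.4 and 81.5 CPM in wild-type embryos (0.34, interval 0.12 to 0.55, adjusted p = 0.163). The survival gene bcl2a averaged 4.02 ± 1.2 CPM in mutants and 4.38 ± 1.18 CPM in wild-type embryos. The smallest p of the list belonged to ldha, a lactate dehydrogenase, with 100.3, 94.0 and 97.7 CPM in mutants and 98.9, 154 and 152 CPM in wild-type embryos, lower in mutants but not called (-0.47, adjusted p = 0.132).

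**Figure D4:**
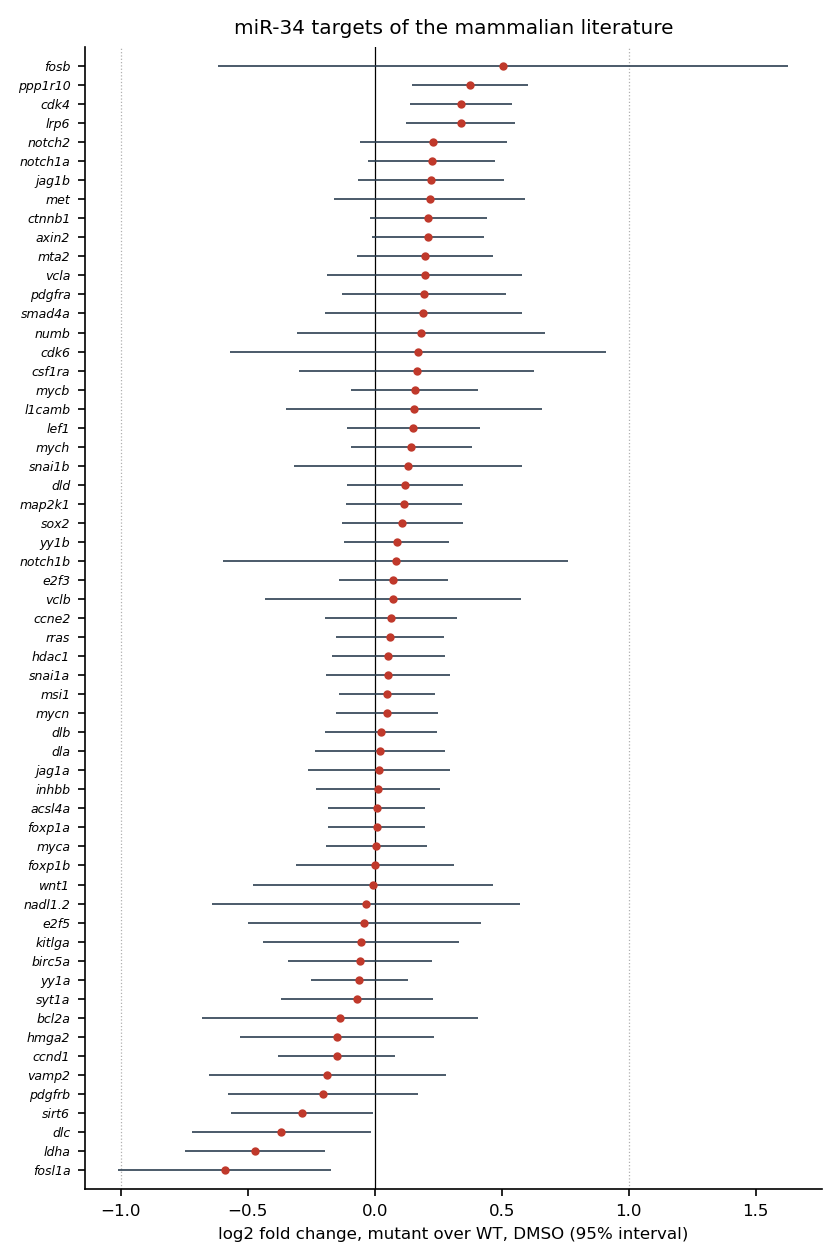
Log2 fold change, mutant over wild-type embryos in DMSO, of the 59 tested genes known in mammals as miR-34 targets, with 95% intervals, sorted by value; dotted lines mark 2-fold. 43 points lie above 0, none was called, and the widest interval is that of fosb.

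The p53 pathway, which lies upstream of miR-34, did not separate the genotypes in undamaged embryos by the adjusted test. Of 31 tested p53 targets edgeR and limma-voom called 0 and DESeq2 called 1. Their median was -0.003, and 5 had an unadjusted p under 0.05 (16.1%, against 11.8% of the tested genes). Of these 5, 4 were lower and 1 was higher, against 658 lower of 1397 among the tested genes. The DESeq2 call was lower, as was the 1 call of the edgeR fit without wild-type library 1. mdm2, the ligase that degrades p53, averaged 23.7 ± 4.9 CPM in mutants and 22.9 ± 4.3 CPM in wild-type embryos, and cdkn1a, the cell cycle inhibitor p21, averaged 6.13 ± 1.02 CPM in mutants and 5.58 ± 0.79 CPM in wild-type embryos. sesn3, a stress-induced regulator of growth signalling, had 43.1, 37.0 and 40.6 CPM in mutants and 43.6, 76.2 and 71.0 CPM in wild-type embryos (-0.66, adjusted p = 0.0627). Of 30 genes of the apoptosis machinery 0 were called by edgeR, DESeq2 and limma-voom. The median was -0.138, and 24 had a value below 0, against 5582 of the 11866 tested genes. An unadjusted p under 0.05 was held by 8 (26.7%, against 11.8% of the tested genes). Of these 8, 7 were lower, against 658 of 1397 among the tested genes. casp9, the initiator caspase, was among the 7 (-0.76, adjusted p = 0.142, edgeR). Without wild-type library 1, 2 of the 30 were called lower, against 104 of the 12026 genes tested in that fit.

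Cell cycle lists held 1 call each, both lower. That is 1.82% of the G1/S list and 2.38% of the G2/M list, against 0.405% of the tested genes called lower. Of 55 genes of G1/S and DNA replication, gmnn, the inhibitor of repeated origin licensing, fell to 3.37, 4.12 and 3.80 CPM in mutants, against 6.43, 7.02 and 7.35 CPM in wild-type embryos. The median of that list was 0.047, and 27.3% of its members had an unadjusted p under 0.05, against 11.8% of the tested genes. Of these 15 members 12 were higher, against 739 of 1397 among the tested genes. mcm10, an assembly factor of the replication fork picked after its values were seen, had 38.6 CPM in mutants and 30.2 CPM in wild-type embryos (adjusted p = 0.194, edgeR). Of 42 genes of G2/M and mitosis aspm was called, and the median was 0.05. Of 48 genes of DNA damage signalling and repair 2 (4.17%) were lower, fancg, a subunit of the Fanconi anaemia complex, among them, and the median was 0.048. fancg had 1.16, 1.75 and 1.32 CPM in mutants and 2.53, 3.49 and 3.01 CPM in wild-type embryos. The aspm call held without each library in turn; the gmnn and fancg calls each held in 1 of those 6 fits.

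None of the 83 ribosomal protein genes tested was called by edgeR. Of them 4 had a value above 0, against 6282 of the 11866 tested genes, and the median log2 fold change was -0.355. An unadjusted p under 0.05 was held by 34 (41.0%, against 11.8% of the tested genes). Each of the 34 was lower, against 658 of 1397 among the tested genes. limma-voom also called 0 and DESeq2 called 3, all lower. Their summed level was 102000, 130000 and 117000 CPM in mutants and 125000, 138000 and 154000 CPM in wild-type embryos, so mutant library 2 lay above wild-type library 1 and the groups overlapped. The smallest p was that of rpl22l1, with 215, 275 and 216 CPM in mutants and 270, 348 and 382 CPM in wild-type embryos (-0.50, adjusted p = 0.0864). In CPT 14 of the 83 were called lower, against 256 of the 11866 tested genes, and the median was -0.416. Left-out libraries moved the DMSO median between -0.438, without wild-type library 1, and -0.218, without wild-type library 3. Treatment of multiply aligned reads is not stated, so any member with near-identical copies is uncertain. The 70 respiratory chain and ATP synthase genes had a median of -0.154 (-0.082 without mutant library 1 and -0.208 without mutant library 2), with 0 called by edgeR and limma-voom, 1 by DESeq2, and 17 of 19 with an unadjusted p under 0.05 lower; cox6b2, a subunit of cytochrome oxidase, had 252 CPM in mutants and 322 CPM in wild-type embryos (adjusted p = 0.139).

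In the yolk-layer and immune lists 1 and 3 genes were called, each lower, which is 1 of 41 and 3 of 42 tested members against 0.405% of the tested genes. Of 41 genes of the hatching gland and the yolk syncytial layer, the layer that feeds the embryo from the yolk, apoc2, the cofactor of lipoprotein lipase, was called, with 239, 260 and 250 CPM in mutants and 318, 333 and 374 CPM in wild-type embryos (log2 fold change -0.45 ± 0.10, adjusted p = 0.034, edgeR). Its call held in 1 of the 6 fits without a library, that without wild-type library 1. The list's median was -0.214, and 10 of its members lay above 0. An unadjusted p under 0.05 was held by 18 members (43.9%, against 11.8% of the tested genes). Of the 18, 16 were lower, against 658 of 1397 among the tested genes. The list's summed level of 33200, 36800 and 36300 CPM in mutants did not overlap that of 40400, 41400 and 42000 CPM in wild-type embryos. In CPT 9 members were called lower, against 256 of the 11866 tested genes, and apoc2 was among the 9. Of 42 inflammation and interferon genes 3 were called, all lower: c3b.1, the interferon regulatory factor irf1b, and nfkbiaa, an inhibitor of NF-kappaB. limma-voom called 2 of the 42 and DESeq2 4; c3b.1 held its call in the 6 fits without a library, and irf1b and nfkbiaa in 2 each. irf1b had 0.736, 0.919 and 0.558 CPM in mutants and 4.55, 4.63 and 1.66 CPM in wild-type embryos, and nfkbiaa had 4.23, 4.64 and 5.53 CPM in mutants and 7.55, 10.2 and 7.77 CPM in wild-type embryos. Of the 42 genes 14 lay above 0, and 11 (26.2%) had an unadjusted p under 0.05, 10 of them lower. The median was -0.184 (-0.272 to -0.143 with a library left out), and the summed level was 863, 846 and 803 CPM in mutants and 1060, 1140 and 988 CPM in wild-type embryos. In CPT the median was 0.129, 24 of the 42 lay above 0, and 1 member was called lower, against 256 of the 11866 tested genes. Markers of myeloid leukocytes, a cell source of such genes, had a median of 0.037 over 25 tested members and summed to between 393 and 424 CPM in mutants and between 376 and 418 CPM in wild-type embryos. edgeR and limma-voom called 0 of those 25 and DESeq2 called 3, and log2 fold changes ran from -1.131 to 0.474. Of the 5 with an unadjusted p under 0.05 (20.0%, against 11.8% of the tested genes), 4 were lower and 1 was higher. The first of them was lect2l (-0.73, adjusted p = 0.0606, edgeR). mpx, the neutrophil peroxidase, picked after its values were seen, had 36.8 CPM in mutants and 35.8 CPM in wild-type embryos. It is 1 of the 25 and does not stand for the others. The listed markers mpeg1.1, coro1a and nccrp1, picked in the same way, were at 0 counts in the 6 libraries. The annotation used for counting is not stated, so these 0 counts do not show that the genes were unexpressed. The part of such cells in the lower immune genes was not tested.

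Chaperone and sterol genes were described by 2 lists. Of 40 heat shock and chaperone genes hsp70l and hspa5 were higher and ptges3a was lower, 3 of 40 against 0.598% of the tested genes. The median log2 fold change was 0.119 (0.209 without wild-type library 1). An unadjusted p under 0.05 was held by 12 (30.0%, against 11.8% of the tested genes). Of these 12, 10 were higher, against 739 of 1397 among the tested genes. The calls of hsp70l and hspa5 held in 4 and 2 of the 6 fits without a library. Without wild-type library 1, 6 members of the list were called higher, against 92 of the 12026 genes tested in that fit. In CPT neither was called between the genotypes: hsp70l averaged 16.7 CPM in mutants and 13.2 CPM in wild-type embryos, and hspa5 averaged 674 CPM in mutants and 684 CPM in wild-type embryos. Of 40 genes of cholesterol and lipid synthesis srebf2, the transcription factor that switches on the sterol pathway, was called, with 205, 178 and 174 CPM in mutants and 149, 129 and 124 CPM in wild-type embryos. This 1 call is 2.5% of the list, against 0.194% of the tested genes called higher. An unadjusted p under 0.05 was held by 7 members (17.5%, against 11.8% of the tested genes), each of them higher. The median was 0.105 (0.048 without wild-type library 2). hmgcs1, an early enzyme of the pathway picked after its values were seen, had 43.5, 46.7 and 46.8 CPM in mutants and 40.7, 27.3 and 24.2 CPM in wild-type embryos (0.57, adjusted p = 0.0861, edgeR). The srebf2 call held in 1 of the 6 fits, that without wild-type library 1. In that fit 3 members of the list were called higher, against 92 of the 12026 genes tested.

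The remaining lists held no gene called by edgeR or limma-voom. Signalling lists had medians, against 0.015 for the tested genes, of 0.024 for 39 Notch pathway and proneural genes, 0.092 for 48 Wnt pathway genes (0.009 without mutant library 1 and 0.16 without mutant library 3), 0.069 for 44 immediate early and AP-1 genes, 0.035 for 38 circadian clock genes and -0.021 for 23 genes of microRNA biogenesis and Argonaute. An unadjusted p under 0.05 was held by 11.8% of the tested genes. Of the Notch list 4 members (10.3%) had one, each lower. They were led by the proneural factor neurog1 with 53.7 CPM in mutants and 71.4 CPM in wild-type embryos (adjusted p = 0.0898, edgeR). In the Wnt list 5 (10.4%) had one, each higher. In the immediate early, clock and microRNA lists 5 (11.4%), 7 (18.4%) and 1 (4.35%) had one. Of these signalling lists, only the clock list lay above the share of the tested genes. DESeq2 called 1 Notch, 1 immediate early and 2 clock genes. The immediate early gene ier2b had 16.6 CPM in mutants and 9.14 CPM in wild-type embryos (adjusted p = 0.0715), and the light-responsive clock gene per2 had 28.3 CPM in mutants and 20.8 CPM in wild-type embryos (adjusted p = 0.0612). The 53 tested genes of cilia and multiciliated cells had a median of 0.008, with 1 at an unadjusted p under 0.05, and their summed level was 737 to 744 CPM in mutants and 719 to 733 CPM in wild-type embryos.

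Tissue markers gave medians of 0.081 for 36 neural progenitor genes, -0.004 for 43 genes of differentiating neurons, -0.012 for 60 of skeletal muscle, 0.052 for 24 of heart, -0.053 for 31 of erythroid cells, 0.148 for 26 of endothelium, 0.049 for 37 of neural crest and pigment cells, 0.021 for 46 of lens and retina, -0.088 for 43 of epidermis and keratins, and 0.087 for 41 of notochord and cartilage. Without mutant library 1 the medians of neurons, muscle, lens and retina, and notochord were -0.1, -0.055, -0.054 and 0.038. From 1 to 7 members of each had an unadjusted p under 0.05, the most being 7 in muscle and 7 in epidermis, where all 7 were lower. In shares this is 2.17% (lens and retina) to 16.3% (epidermis), against 11.8% of the tested genes. Of these tissue lists, only epidermis lay above that share. DESeq2 called 1 or 2 members in each of neural progenitors, neurons, muscle and epidermis, and 0 in the others. In the 22 lists with no call by edgeR, 10 had none by DESeq2 either. Of the 71 called genes, 12 stood on any of the 29 lists, as did 1164 of the 11866 tested genes.

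**Figure D5:**
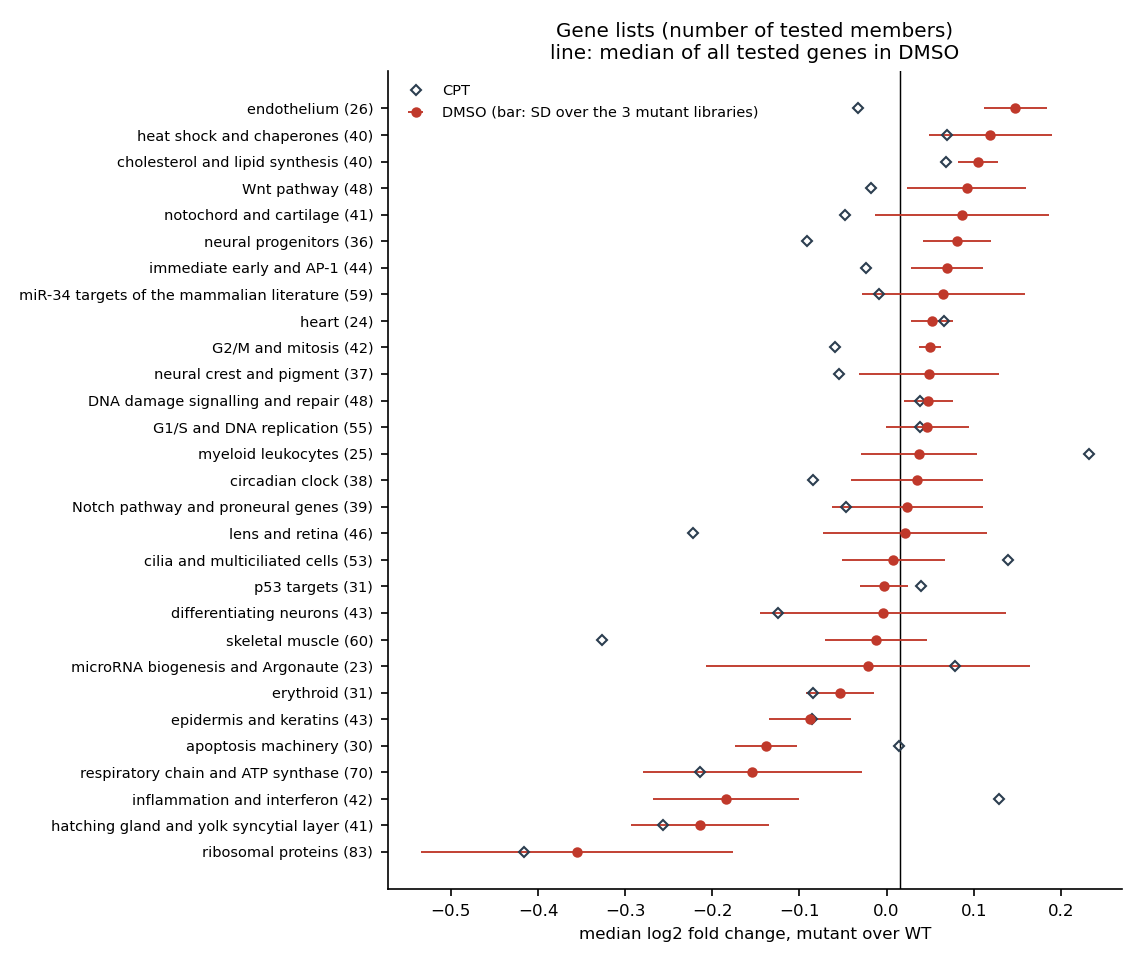
Median log2 fold change, mutant over wild-type embryos, of the tested members of the 29 lists (number tested in brackets), in DMSO (red) and in CPT (open diamonds). The bars are the SD over the 3 mutant DMSO libraries of the median difference from the wild-type mean of log2(CPM + 0.1); with the 12 libraries, ribosomal proteins lie lowest at -0.355 and endothelium highest at 0.148 (0.076 without wild-type library 3, where other lists lie higher), and the line marks the median of the tested genes, 0.015.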

How the data were processed

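Per the labels' protocols, poly(A)-enriched embryo RNA was sequenced with Ion Proton chemistry, at RNA integrity numbers of at least 8. The deposited table holds raw read counts per gene symbol, made by the authors with HTSeq 0.9.1, Picard 2.5.0, Bowtie2, STAR 2.7 and Trim Galore 0.4.4 on build danRer11, all as listed in the submitters' processing notes. Annotation, strand setting and treatment of multiply aligned reads are not stated in the sources used here, so near-identical copies, overlapping genes and antisense pairs are uncertain.

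From the counts, genes were kept with filterByExpr by group, and libraries were scaled with TMM factors. The robust quasi-likelihood model of edgeR 4.0.16 (R 4.3.3) was fitted once to the 12 libraries with 1 mean per group, leaving 8 residual degrees of freedom, so that the groups share an estimate of spread. The contrast was mutant minus wild type in DMSO, and p-values were adjusted by Benjamini-Hochberg over 11866 genes, with no fold limit. CPM are TMM-scaled, except those of the mir34 rows, which the filter removed. SE and 95% intervals of log2 fold changes come from the quasi-likelihood F statistic. The median SE was 0.124 for genes of at least 10 CPM in wild-type embryos and 0.233 from 1 to 10 CPM. Counting intervals and limits cover counting error only. The code was tested on simulated data.

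Alternatives were DESeq2 1.42.0, limma-voom (limma 3.58.1), other scalings and filters, the 6 DMSO libraries alone, a replicate block and leaving out each DMSO library. The comparison, the 29 gene lists and the tests were chosen with earlier results of these data known. Genes were named by rule: the 15 smallest p, the 6 largest rises and 6 largest falls, leading list members, fixed miR-34 and p53 genes, and called genes within 20 tested genes of mir34a. The largest rises and falls were taken among called genes without overlap and with a mean of at least 1 CPM in a DMSO group. This left out c1galt1a (log2 fold change -3.83). The other genes named, such as kctd6b, rimkla, ggact.2, cdk4, mcm10, hmgcs1 and mpx, were picked after their values were seen. Of the table's symbols 15070 matched GRCz12tu, used for names and gene order, and of 1569 list entries 164 were not matched to a row. Target sites and sequences were not analysed here, and some genes are not reported here.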

Additional observations from a re-analysis of the deposited data

Results flagged for a closer look

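The genotype difference depended on treatment for 2 of the named genes, by the interaction term of the edgeR fit. Their fold changes had opposite signs in the 2 treatments, but the term tests a difference and not a reversal. Neither gene was called in both treatments. ddx54, an RNA helicase of ribosome assembly, had 127, 157 and 141 CPM in mutants and 114, 94.4 and 92.0 CPM in wild-type embryos in DMSO. After CPT it had 207, 194 and 191 CPM in mutants and 263, 239 and 247 CPM in wild-type embryos. Its log2 fold change was 0.50 in DMSO and -0.34 in CPT, a difference of -0.84 (adjusted p = 0.0195, edgeR). In CPT it was not called (adjusted p = 0.0739, edgeR), and its DMSO call held in 2 of the 6 fits without a library.

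otx2a, a homeobox gene of the forebrain and midbrain, had 30.7, 29.7 and 26.6 CPM in mutants and 22.0, 22.0 and 20.3 CPM in wild-type embryos in DMSO, where it was not called. After CPT it had 18.1, 18.9 and 20.3 CPM in mutants and 24.3, 28.0 and 28.1 CPM in wild-type embryos. In CPT it was called lower (adjusted p = 0.0243, edgeR). The log2 fold change was 0.44 in DMSO and -0.50 in CPT, a difference of -0.93 (adjusted p = 0.0195, edgeR). Over the tested genes 19 passed the test of this difference.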

How the results depend on the processing

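DESeq2 called 182 genes, 78 higher and 104 lower, against 71, 23 and 48, and 30.2% of its calls were called in CPT. Without the filter on low counts 90 were called, 35 of them higher. At an adjusted p under 0.01 there were 26 calls, and with a 2-fold limit 39. Leaving out 1 library gave 24 to 196 calls, 7 to 92 higher and 15 to 104 lower, and 27.6 to 81.5% of them called in CPT; on the chromosome of mir34a 12 to 18 genes were called, and 9.18% to 51.9% of the calls lay there. With 1 library left out, the remaining 2 are assumed to vary like the other groups. limma-voom called 65 genes, DESeq2-type size factors 69, library totals 60 and the 6 DMSO libraries alone 72. Of the 71 main calls these kept 61, 68, 57 and 57, in that order, so similar totals hide different genes. The replicate block gave 84 calls, of which 68 are among the 71. Same-numbered DMSO libraries did not deviate together (correlations of -0.0194, 0.0528 and -0.0304). With 3 libraries per group this cannot exclude that the numbers pair the samples. The 71 genes kept their sign in each setting that tested them, which their lack of overlap fixes. Of the named genes' values 55 lost the call, 22 gained it, 6 moved and 786 did neither; of 435 list medians 21 moved by more than the spread over mutant libraries. The CPT share under limma-voom, no filter, the model that is not robust and left-out libraries, and the counts by chromosome, were added after seeing the data. Depth limits mir34 and the 30 called genes under 10 CPM in both groups most. The causes were not tested.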
